A study of Mus musculus with 2 samples.

Results

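The receptors that share the common gamma chain, together with the 2 kinases that carry their signal, were examined for Notch1 binding in gamma delta T cells. The set held 10 of the 21938 protein-coding genes annotated on the mouse nuclear chromosomes. Il2rg encodes the shared chain, Il2ra, Il2rb, Il15ra, Il7r, Il4ra, Il9r and Il21r encode chains that pair with it, and Jak1 and Jak3 encode kinases bound to the chains. A peak was assigned to a gene if it overlapped the gene body or the 50 kb on either side of any annotated start site, a stretch called the window below. The rule took 12 of the 5910 peaks on nuclear chromosomes. The data came from chromatin immunoprecipitation followed by sequencing (ChIP-seq) of primary gamma delta T cells, isolated from thymus at postnatal day 0 to 3, in C57BL/6 mice of wild-type genotype. A rabbit monoclonal Notch1 antibody (D1E11) gave 1 library, and 1 input library without antibody came from the same kind of cells. The labels do not say how many animals were pooled or how the cells were purified. The input is not analysed here, the read depth is unknown, and with 1 Notch1 library no value below has a replicate or a test. Each peak carries a score given by the authors on a scale that no source used here states, and scores were used only to rank peaks within the list.

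Cytokines of this family (interleukins 2, 4, 7, 9, 15 and 21) bind a receptor of private chains joined to the common gamma chain. Jak1 on the private chain and Jak3 on the common chain then phosphorylate STAT proteins, which enter the nucleus. The family is known for its part in lymphocyte development and survival, and interleukin-7 signalling is known to be needed for gamma delta T cells. Notch1 is a surface receptor whose cleaved intracellular domain reaches DNA through the protein RBPJ, for which TGGGAA is the core string.

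Of the 10 genes, 8 had at least 1 peak in the window, namely Il2rg, Il2ra, Il2rb, Il15ra, Il7r, Il4ra, Il21r and Jak1. Of all protein-coding genes, 31.7% had one, and of the 14497 genes whose window was as long as those of the set (100.1 to 210.2 kb) 33.7% did. The 8 genes did not each have peaks of their own, because Il2ra and Il15ra shared 1 peak and Il4ra and Il21r shared another. The receptor genes Il2ra, Il2rb and Il2rg, which together encode the high-affinity interleukin-2 receptor, were the 3 with a peak within 5 kb of a start site, where 8.81% of all genes had one. Within 20 kb Il7r and Jak1 joined them, making 5 of 10 beside 17.7% of all genes. A peak inside the gene body was found in 5 genes (Il2ra, Il2rb, Il2rg, Il21r and Jak1), beside 11.6%. With a window of 100 kb Il9r was added, making 9 of 10 beside 46.2%. Jak3 alone had no peak at any of these distances. The windows of the set, merged where they overlapped, spanned 1.05 Mb and held 11.5 peaks per Mb. The merged windows of all coding genes held 2.83 peaks per Mb, and the nuclear genome without gaps held 2.23. These counts and densities are descriptions, because the set was chosen with peaks at Il2ra and Il2rb already known.

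**Figure D1:**
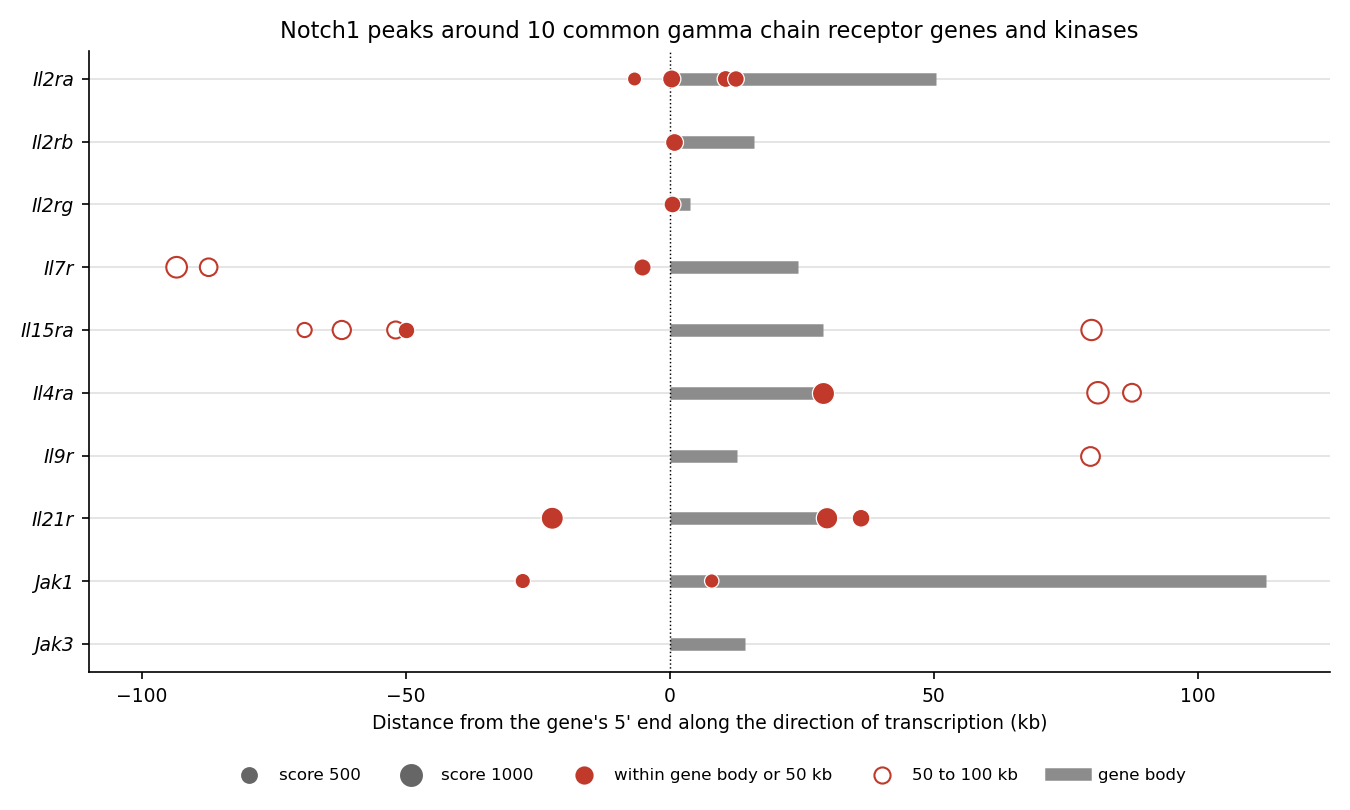
Notch1 peaks around each of the 10 genes, drawn as points at their distance in kb from the 5' end of the gene along the direction of transcription, with the gene body as a bar and the point area proportional to the deposited score. Filled points lie in the window of the rule and open points between 50 and 100 kb from a start site. Il2ra, Il2rb and Il2rg have points at the 5' end, and the row of Jak3 is empty.

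By number of peaks the set was uneven. Il2ra had 4 peaks in its window, a number that 1.31% of all protein-coding genes reached or passed, and Il21r had 3, which 3.49% reached or passed. Jak1 had 2 peaks (9.55% of genes had 2 or more), and Il2rg, Il2rb, Il7r, Il15ra and Il4ra had 1 each. The median distance from a gene's nearest start site to its nearest peak was 14.9 kb over the 10 genes and 118 kb over all coding genes. At the edge of the rule, the nearest peak to Il15ra lay 49.7 kb from a start site, just inside, and that to Il9r lay 79.3 kb away, outside.

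**Figure D2:**
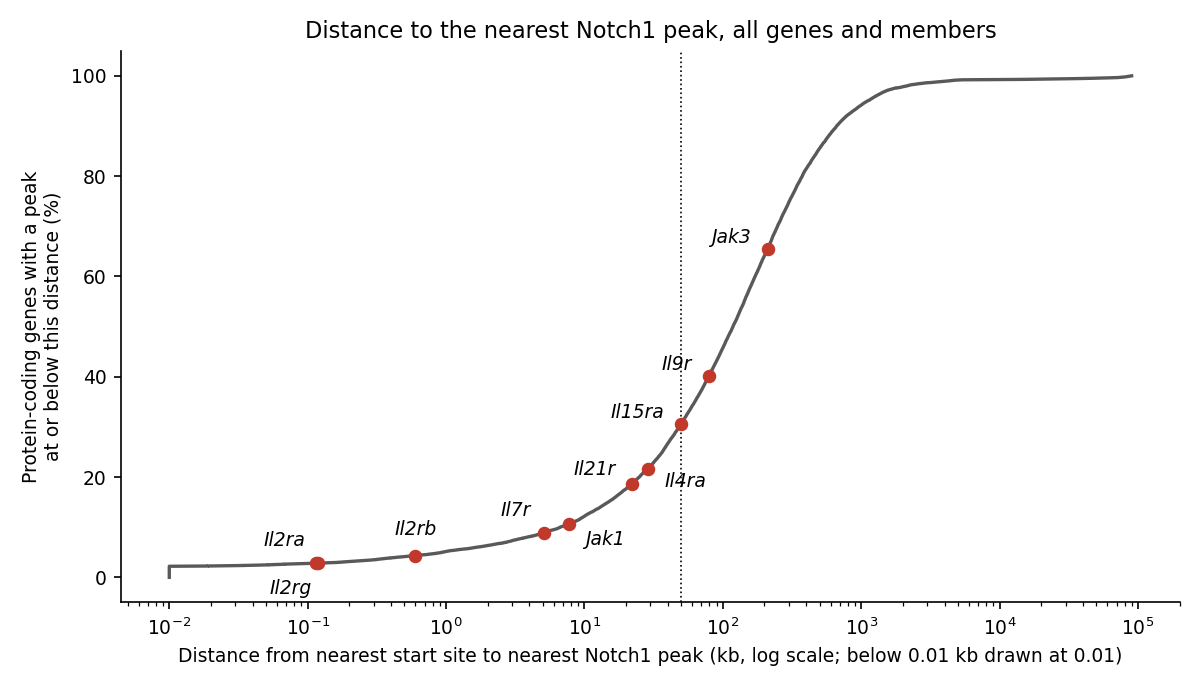
Cumulative share of the 21938 protein-coding genes (y axis, %) against the distance from a gene's nearest start site to the nearest Notch1 peak (x axis, kb, log scale), with the 10 genes as points and the 50 kb limit as a dotted line. Il2rg (0.114 kb), Il2ra (0.118 kb) and Il2rb (0.599 kb) lie at the near end, and Jak3 (211 kb) lies beyond the middle of the curve.

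Il2rg, the common gamma chain that every receptor of the family needs, carried 1 peak inside the gene. The peak spanned chrX:101267548-101267992 (mm10), 445 bp wide, with a score of 659.1, and 31.1% of the list scored lower. Its edge toward the gene's 5' end lay 263 bp inside the gene, and its other edge lay 114 bp upstream of the start site of a shorter coding transcript. It covered the whole of exon 2 (154 bp, all coding) with parts of introns 1 and 2. The same stretch lies in intron 1 of Gm20489, an overlapping coding annotation. The peak held 1 RBPJ core, at 101267872. Soft-masked repeat sequence made up 20.2% of it, and 0 of its 414 strings of 32 bases occurred elsewhere on the chromosomes.

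Il2ra encodes the alpha chain, which raises the affinity of the receptor for interleukin-2. Its 4 peaks stood within 19.6 kb of each other on chromosome 2, from upstream of the gene to the first part of its long intron 1. Of all nuclear peaks, 5.13% belonged to a run of 4 peaks within such a length. The first, at chr2:11635961-11636340, lay 6.47 kb upstream of the gene and had the lowest score of the 12 (464.4, with 2.08% of the list below it). It held 0 RBPJ cores, and 8.88% of its 32-base strings were repeated elsewhere. The second, at chr2:11642967-11643415, began 160 bp inside the gene, scored 765.7 (59.6% of the list below it) and covered the last 98 bp of exon 1, 64 of them coding, and 351 bp of intron 1. The third, at chr2:11653251-11653548, and the fourth, at chr2:11655159-11655560, lay wholly in intron 1, with scores of 665.6 and 639.4. They stood 10.4 and 12.3 kb from the nearest start site and 1610 bp apart. Only the peak at the 5' end scored above the list's median of 717.7.

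The peaks of Il2ra differed in the strings they held. The peak at the 5' end held 3 RBPJ cores, which 0.948% of all nuclear peaks reached or passed. That share was not matched for length, and this peak was the widest of the 12 (449 bp, beside a list median of 370). The first 2 cores lay 3 bp apart on the plus strand, at 11643086 and 11643095. The third lay on the minus strand at 11643316, 215 bp further on. All 3 were in intron 1, beyond the end of exon 1. Of the intronic peaks, the nearer held 0 RBPJ cores but 1 STAT string with a spacer of 4 bases (TTC and GAA with any 4 bases between them) and 1 RUNX string, and the farther held 1 core, 2 STAT strings with a spacer of 3 bases (TTCNNNGAA) and 2 RUNX strings (TGTGGT). STAT proteins are the factors that carry the signal of these receptors. The upstream peak held 1 STAT string with a spacer of 3 bases. Of all nuclear peaks, 11.4% held a STAT string with a spacer of 3 bases and 10.2% one with 4 bases. A RUNX string (TGTGGT or TGCGGT) was in 30.5% of them. The intronic sequences are shown because they hold these strings, on the plus strand of mm10, which is the coding strand of Il2ra. Capitals mark RBPJ cores (TGGGAA, or TTCCCA where it lies on the minus strand) in the first, the STAT and RUNX strings in the second, and the RBPJ core and STAT strings in the third.
Il2ra 5' end of intron 1, chr2:11643065-11643364: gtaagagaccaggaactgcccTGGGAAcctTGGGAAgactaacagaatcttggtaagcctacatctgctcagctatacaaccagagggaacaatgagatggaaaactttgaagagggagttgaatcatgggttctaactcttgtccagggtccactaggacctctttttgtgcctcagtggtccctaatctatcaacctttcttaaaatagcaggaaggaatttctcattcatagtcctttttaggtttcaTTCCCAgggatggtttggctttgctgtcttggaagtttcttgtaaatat
Il2ra intron 1, nearer peak, chr2:11653251-11653548: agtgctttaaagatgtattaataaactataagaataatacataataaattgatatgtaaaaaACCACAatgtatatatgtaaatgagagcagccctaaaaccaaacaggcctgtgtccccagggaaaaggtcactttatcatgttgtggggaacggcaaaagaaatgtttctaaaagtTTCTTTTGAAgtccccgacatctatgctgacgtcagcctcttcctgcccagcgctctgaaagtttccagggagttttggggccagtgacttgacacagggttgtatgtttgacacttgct
Il2ra intron 1, farther peak, chr2:11655210-11655509: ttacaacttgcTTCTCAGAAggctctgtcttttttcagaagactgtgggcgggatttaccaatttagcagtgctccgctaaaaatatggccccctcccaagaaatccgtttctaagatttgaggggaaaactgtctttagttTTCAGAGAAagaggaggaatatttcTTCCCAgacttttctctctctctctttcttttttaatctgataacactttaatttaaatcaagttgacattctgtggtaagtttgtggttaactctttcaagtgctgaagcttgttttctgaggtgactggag

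Il15ra encodes the chain that binds interleukin-15 and lies 12.1 kb beyond the end of Il2ra, transcribed in the same direction. It had 0 peaks in the gene body. Its single peak by the rule was the farther intronic peak of Il2ra just described, 49.7 kb upstream of the first of 17 start sites of Il15ra and 12.3 kb from a start site of Il2ra. The other 3 Il2ra peaks lay 51.7, 61.9 and 69.0 kb from Il15ra, outside the limit. On its other side a peak at the promoter of Ankrd16 (score 951.4) lay 61.8 kb from the last start site. The assignment of Il15ra therefore rested on 1 peak nearer to another gene, at the limit of the window.

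**Figure D3:**
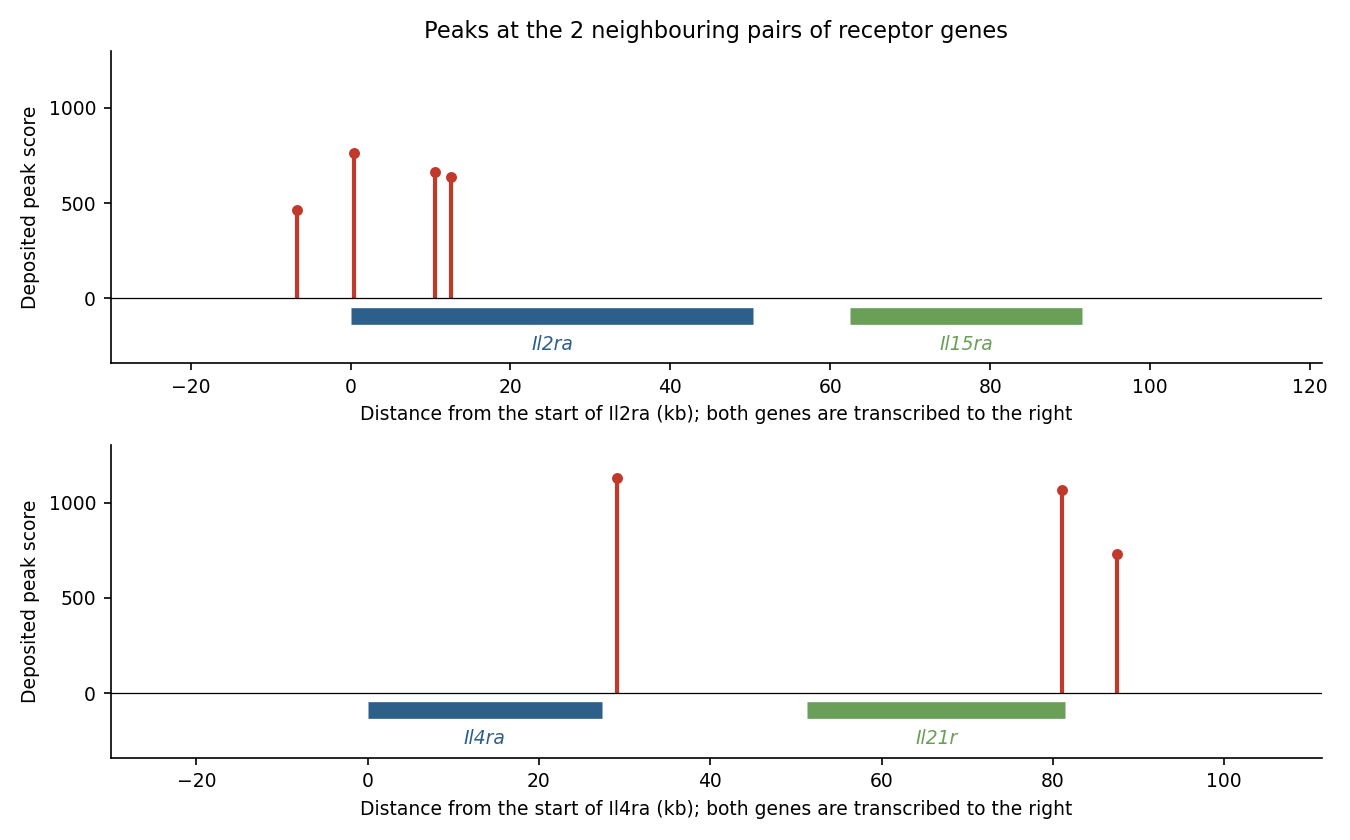
Deposited score of each peak (y axis) at the neighbouring genes Il2ra and Il15ra (upper panel) and Il4ra and Il21r (lower panel), against the distance in kb from the start of the first gene, with gene bodies as bars. The 4 peaks of the upper panel lie over and before Il2ra with none over Il15ra, and the peaks of the lower panel lie between the genes (1128.5), at the end of Il21r (1063.7) and beyond it (730.4).

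Il2rb, the beta chain shared by the receptors for interleukins 2 and 15, had 1 peak, at chr15:78494356-78494672. It was 317 bp wide, scored 742.1 (55.5% of the list below it) and lay wholly in intron 1, 599 bp downstream of the gene's 5' end. It also lay upstream of the start site of another coding transcript of this minus-strand gene, at 78493756. None of the 11 strings searched was present in the peak. Its sequence was 7.89% soft-masked with 0 repeated 32-base strings. The set had 3 peaks at promoters, within 1 kb of a start site of a coding gene, and this one held 0 RBPJ cores while those of Il2ra and Il2rg held 3 and 1.

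Il7r, which encodes the receptor chain for interleukin-7, had 0 peaks in the gene body and 1 upstream. That peak spanned chr15:9535248-9535583, 336 bp, with a score of 688.6 (42.5% of the list below it). It lay 5.07 kb upstream of the most distal annotated start site, which belongs to a noncoding transcript, and 5.41 kb upstream of the nearest start of a coding one. Beyond the window, peaks stood 87.1 and 93.2 kb upstream with scores of 711.5 and 982.7, outside Il7r and within introns of other coding annotation. The peak in the window held 1 RBPJ core at its very edge (9535248), overlapping by 1 base the GATA string AGATAA, and an AP-1 string (TGACTCA) near its middle. None of the other 11 peaks held an AP-1 string, and 6.60% of all nuclear peaks held one, so 1 of 12 was near the share of the list. Its first 300 bases are shown on the plus strand, opposite to the coding strand of Il7r, with the RBPJ core and the AP-1 string in capitals.
Il7r upstream peak, chr15:9535248-9535547: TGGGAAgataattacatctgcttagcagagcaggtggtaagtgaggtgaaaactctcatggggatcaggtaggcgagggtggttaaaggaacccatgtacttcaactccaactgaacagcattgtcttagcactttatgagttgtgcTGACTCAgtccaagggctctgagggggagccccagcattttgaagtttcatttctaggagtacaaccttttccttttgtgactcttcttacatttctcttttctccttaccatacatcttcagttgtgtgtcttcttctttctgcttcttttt

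Il4ra and Il21r encode the chains for interleukins 4 and 21 and lie next to each other on chromosome 7, 24.0 kb apart and transcribed in the same direction. The peak between them, at chr7:125581035-125581355, had the highest score of the 12 (1128.5, rank 666 of 5910). It lay 1561 bp beyond the end of Il4ra, 28.7 kb downstream of the nearest Il4ra start site and 22.1 kb upstream of that of Il21r. Neither gene had a peak within 20 kb of a start site. Of the 2 genes only Il21r had further peaks in its window. A peak at chr7:125633125-125633339, with the second highest score of the 12 (1063.7, rank 838), lay wholly in the untranslated part of its last exon, exon 9, 231 bp before the gene's end. Another peak, at chr7:125639506-125639832 (score 730.4), lay 5936 bp beyond that end. Those 2 peaks had Gtf3c1 as the gene with the nearest coding start site, 16.6 and 10.1 kb away. Gtf3c1 encodes a subunit of a general factor of RNA polymerase III transcription.

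The sequence of the peak between Il4ra and Il21r differed from that of the peak at the end of Il21r. The peak between the genes held 18 CpG dinucleotides, or 5.61 per 100 bp, a density that 8.09% of all nuclear peaks reached or passed. The nearest start site of any annotated gene, the antisense gene Gm44876, lay 8918 bp from it. It held 2 RBPJ cores on the minus strand, 144 bp apart, an ETS string (CCGGAA) between them and 1 RUNX string. The peak in the last exon of Il21r held none of the 11 strings, was 68.4% soft-masked, the highest share of the 12, and had 5.43% of its 32-base strings repeated elsewhere. The peak beyond the end of Il21r held 1 RBPJ core and was 10.7% soft-masked. The peak of highest score is shown on the plus strand, the coding strand of both genes, with the RBPJ cores and the ETS string in capitals.
Il4ra/Il21r intergenic peak, chr7:125581046-125581345: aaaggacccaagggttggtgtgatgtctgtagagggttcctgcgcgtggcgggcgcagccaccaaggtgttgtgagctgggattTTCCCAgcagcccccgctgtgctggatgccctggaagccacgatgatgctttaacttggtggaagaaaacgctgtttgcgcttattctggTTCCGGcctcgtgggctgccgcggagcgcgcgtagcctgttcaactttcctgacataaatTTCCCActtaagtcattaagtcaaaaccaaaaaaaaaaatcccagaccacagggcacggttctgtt

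Il9r, the chain for interleukin-9, had 0 peaks in the window. Its nearest peak (chr11:32120624-32120901, score 808.5) was intergenic and lay 79.3 kb downstream of a start site, past the far end of the gene. That distance or less was found for 40.1% of all coding genes.

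The kinase genes differed from each other. Jak1 had 2 peaks of low score. The first, at chr4:101257112-101257525 (score 479.4, with 2.42% of the list below it), lay in intron 1 of the principal transcript, 7.70 kb from a start site, and overlapped by 33 bp an untranslated exon of another coding transcript. It held 2 AGATAA strings and 0 RBPJ cores, and its GC content of 36.5% was the lowest of the 12. The second, at chr4:101292898-101293313 (score 544.4), lay 27.6 kb upstream of Jak1, in intron 2 of the long noncoding RNA gene Gm12796. It had the highest GC content of the 12 (66.3%), 35 CpG dinucleotides and 0% soft-masked sequence. At 8.41 CpG per 100 bp it was denser than most, since 4.53% of all nuclear peaks reached or passed that value. No annotated start site lay close to it: the nearest, of the long noncoding RNA gene Gm12801, stood 8677 bp away. The 2 RBPJ cores of this peak lay on opposite strands, 123 bp apart, and both are in capitals in the part shown, on the plus strand, opposite to the coding strand of Jak1.
Jak1 upstream peak, chr4:101293014-101293313: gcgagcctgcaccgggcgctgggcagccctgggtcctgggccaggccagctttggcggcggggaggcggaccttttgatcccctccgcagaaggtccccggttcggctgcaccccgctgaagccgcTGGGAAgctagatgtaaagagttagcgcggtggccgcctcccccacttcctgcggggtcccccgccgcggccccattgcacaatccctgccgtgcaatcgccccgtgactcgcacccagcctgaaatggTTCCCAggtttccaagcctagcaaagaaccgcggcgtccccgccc

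Jak3, which binds the common gamma chain itself, had no peak within 100 kb. The nearest, at chr8:71464691-71465055 (score 689.5), lay 211 kb upstream at the promoter of Mrpl34, a mitochondrial ribosomal protein gene. For 65.5% of all coding genes the nearest peak was at that distance or closer.

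By score the 12 peaks lay mostly in the middle and lower part of the list. Their median was 677.1 and their range 464.4 to 1128.5, beside a median of 717.7 and a range of 55.4 to 3220.8 over all nuclear peaks. At or above the list's median were 5 of the 12, in the upper quartile 2, both at the Il4ra and Il21r locus, and in the lowest quartile 4. Counting only peaks at or above the median, 4 of the 10 genes (Il2ra, Il2rb, Il4ra and Il21r) had one in the window, beside 19.3% of all coding genes. With peaks of the upper quartile alone 2 genes did, Il4ra through the shared peak and Il21r through that peak and the one in its last exon, beside 10.8%. Widths ran from 215 to 449 bp with a median of 358, beside 370 over the list. By position 3 of the 12 were at promoters, 2 in exons, 2 in introns and 5 intergenic, where a peak away from promoters that touched an exon of any coding transcript counted as exonic and intergenic means outside coding genes, so that the upstream Jak1 peak, in an intron of a noncoding gene, is among the 5. Over the list the shares were 19.8% promoter, 5.08% exon, 32.3% intron and 42.8% intergenic.

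**Figure D4:**
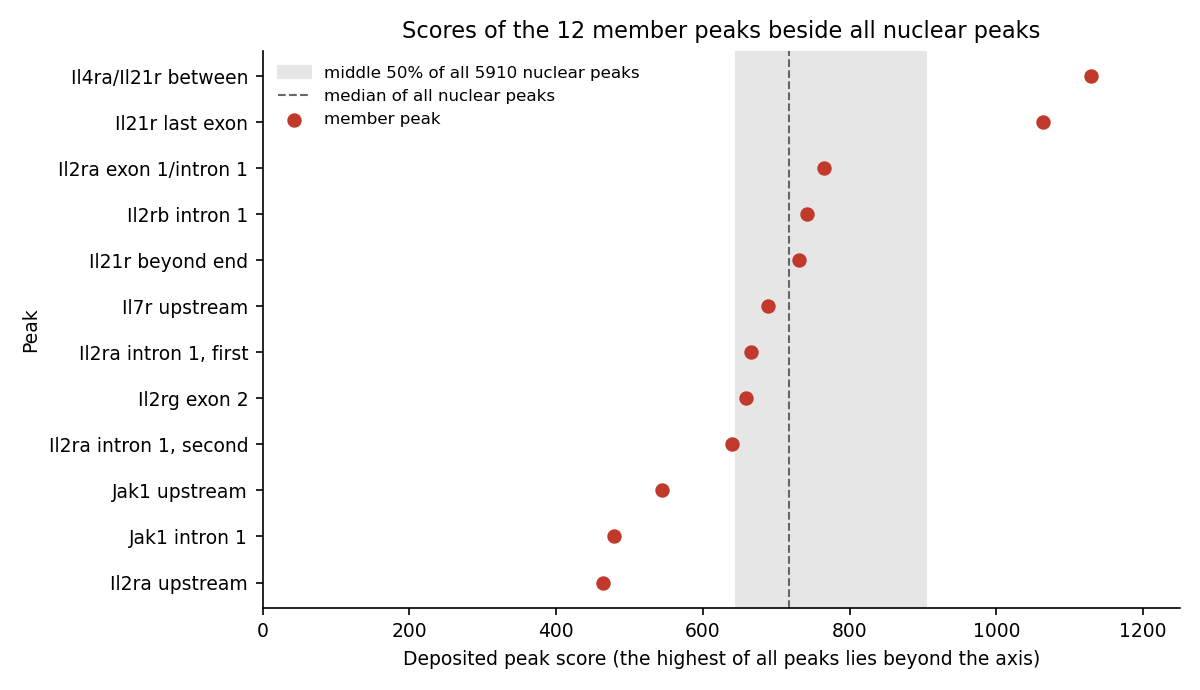
Deposited score (x axis) of each of the 12 peaks, in order of score, with the middle 50% of all 5910 nuclear peaks as a grey band (644.8 to 903.7) and their median as a dashed line. The 2 peaks of highest score, at the Il4ra and Il21r locus, stand to the right of the band, and 4 stand to its left: both Jak1 peaks and the upstream and farther intronic peaks of Il2ra.

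Across the set 7 of the 12 peaks held the RBPJ core on either strand, beside 29.5% of all nuclear peaks. Over 300 bp centred on each peak, so that lengths match, 6 of 12 held it, beside 25.0% of all nuclear peaks and 25.6% of 32851 RefSeq promoters of 300 bp (build GRCm38.p6). The 7 were the Il2rg peak, the 5' end and farther intronic peaks of Il2ra, the Il7r peak, the peak between Il4ra and Il21r, the one beyond Il21r and the upstream Jak1 peak. In 3 peaks there were 2 or more cores, beside 5.67% of the list, over whole peaks not matched for length. The longer RBPJ consensus (GTGGGAA or GTGAGAA with a C or T before it) was in 0 of the 12, beside 6.18% of the list. Its form with GTGGGAA contains the core and its form with GTGAGAA does not. STAT strings with a spacer of 3 bases were in 2 of 12 (11.4% of the list, 8.30% of promoters) and with 4 bases in 1 of 12 (10.2% and 6.95%), all at Il2ra. RUNX strings (TGTGGT or TGCGGT) were in 3 of 12, at Il2ra and between Il4ra and Il21r, beside 30.5% of the list and 22.4% of promoters. The ETS string was in 1 (7.39% and 14.9%), the GATA string AGATAA in 2 (20.7% and 11.2%), the AP-1 string in 1 (6.60% and 5.20%) and the TCF string CTTTGA in 1 (25.4% and 16.0%). The E-box strings CACGTG and CAGCTG were in 0 of 12, beside 5.62% and 15.6% of the list and 7.15% and 16.3% of promoters. A match describes letters in a window and does not show that a factor was bound.

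**Figure D5:**
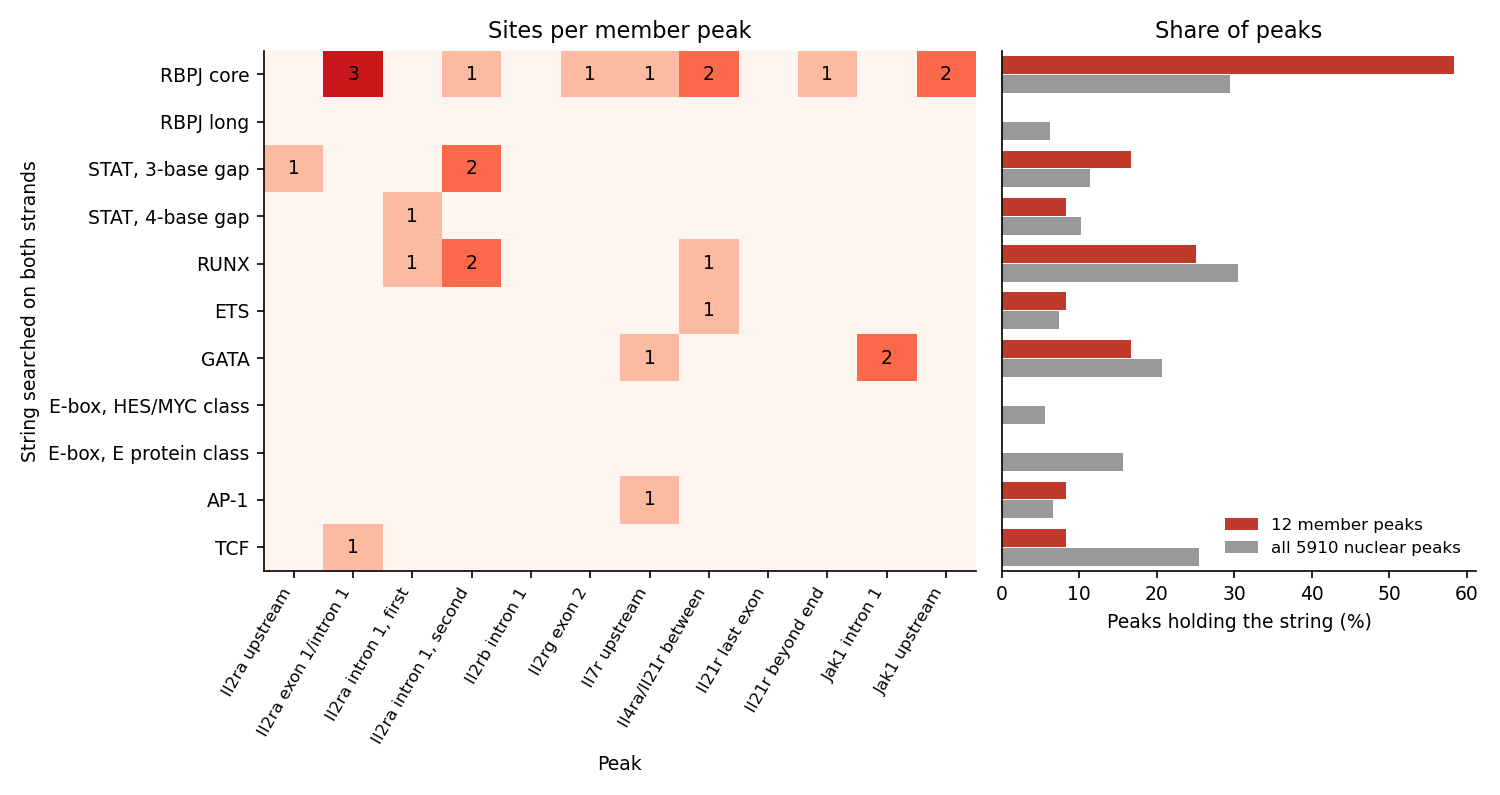
Left, the number of sites of each string (rows, both strands) in each of the 12 peaks (columns), with empty cells at 0. Right, the share of peaks holding each string (x axis, %) in the 12 peaks (red) and in all 5910 nuclear peaks (grey). The RBPJ core row has sites in 7 columns, and the STAT rows have sites only at Il2ra.

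The rest of the pathway was read from lists of genes. Of the 6 genes for the ligands, which T cells and stromal cells make, only Il2 had a peak in the window, with 3 peaks. The nearest of them lay 7.3 kb from a start site and the highest (chr3:37156927-37157398, score 1307.8) 31.0 kb. Il21, its neighbour on the chromosome, had its nearest peak 58.9 kb away, and Il4 95.5 kb, Il9 140 kb, Il7 214 kb and Il15 707 kb. Of 2 listed chains outside the set that pair with private chains of the set, Il13ra1 had a peak in the window and Crlf2 had none. The peak of Il13ra1 lay 24.3 kb from a start site (score 1136.3). Among the signal transducers, Stat3, Stat5a and Stat5b shared a peak of score 1621.9, which lay 3.79 kb from a start site of Stat5b, and Stat3 had another peak over one of its own start sites. Stat6 and the kinase genes Jak2 and Tyk2 had none, like Jak3.

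Of 7 inhibitors of the pathway 4 had a peak in the window. Socs1, a feedback inhibitor of the kinases, had 3, the highest 2.96 kb from a start site (score 1042.4). Cish, a STAT5 target and feedback inhibitor, had 2, the highest (1378.7) nearest to the start of Mapkapk3. Socs3 (642.2) and Sh2b3 (737.4, nearest to Pheta1) completed the 4, while Socs2, Ptpn2 and Ptpn6 had none. Of 7 genes known to answer to the signal, Cish among them, 6 had a peak, and Ccnd2 did not. Cish, Bcl2l1 (1106.6), Ccnd3 (1102.2) and Pim1 (835.9) had the highest scores, but the highest peak of Bcl2l1 was nearest to Cox4i2 and that of Ccnd3 to Bysl. Of 30 cytokine receptor genes that do not use the common gamma chain, 14 had a peak in the window and 9 within 5 kb of a start site. Ifngr2 and Ifnar1, neighbours that shared a peak of score 3100, Ifngr1 (1928.3) and Il17rc (1288.0) had the highest scores among them, but the peak of Il17rc was nearest to Creld1. The 31.7% and 8.81% of all coding genes given above are the background for these counts, and neighbouring genes on a list shared peaks.

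The labelled cell type could be set only against the position of peaks, since a peak list measures no expression. Trdc, which encodes the constant region of the delta chain, had its nearest peak 81.8 kb away, and Sox13, a transcription factor gene of gamma delta T cells, had 1 peak in the window, 11.5 kb from a start site (score 828.1). The other 4 genes on the list of gamma delta markers, Cd3d, Cd3e, Cd3g and Cd247, encode CD3 chains that all T cells carry, and of these only Cd247 had a peak within 5 kb of a start site. Within that distance 1 of 5 genes for alpha beta thymocytes had a peak (Trac), and 0 of 3 each for B cells, myeloid cells and thymic stroma. In the wider window of the rule these counts were 2 of 5, 2 of 3, 1 of 3 and 1 of 3, in that order. In that window 5 of 6 gamma delta markers had a peak, Cd3d and Cd3g through the same one. Of all coding genes, 8.81% had a peak within 5 kb of a start site and 31.7% in the window. The positions of peaks at these genes do not tell the cell type.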

How the data were processed

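One Notch1 ChIP-seq peak list was analysed. Per the submitters' processing notes, Bowtie 1.0.0, SAMtools 0.1.18 and build mm10 were used. Peak names start with MACS, per the file, but its version, its settings and the use of the input are not stated by any source used here. The deposited score is the authors' value per peak, its scale is not stated, and it served only to rank peaks. Of 5913 peaks, 3 mitochondrial ones were left out. Fixation was for 5 min in 0.5% formaldehyde and libraries had 18 PCR cycles, per the labels' protocols. Whether duplicate reads raised scores was not tested.

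Peaks were set on GENCODE M21 genes, with an overlap of at least 1 bp, using Python 3.11.15, pandas 2.3.3 and pysam 0.24.0. The window step was checked on simulated data. Sequence came from GRCm38.p6, the patch release of the mm10 assembly, through RefSeq, and 11 strings were searched on both strands. Repetition was counted in strings of 32 bases on the chromosomes. A distance runs from the nearest edge of a peak to the nearest start site. The genes, lists and strings were chosen with earlier results of these data known, including peaks at Il2ra and Il2rb, so their counts are descriptions and no test was made. All 10 genes are named, as is the gene with the nearest coding start site to a peak, and up to 4 genes per list by score, and genes without a peak were named to complete short lists. The count for the list of signal transducers is not reported here.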

Additional observations from a re-analysis of the deposited data

How the results depend on the processing

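The 8 genes with a peak in the window became 3 within 5 kb of start sites, 5 within 20 kb, 5 with gene bodies alone, 4 when peaks below the median score were dropped and 2 with the upper quartile alone. The 12 peaks became 3 within 5 kb, 7 in gene bodies, 5 without those below the median score and 2 with the upper quartile alone. The longer RBPJ consensus was in 0 of the 12 peaks. Start sites of coding transcripts moved the distance of Il7r to 5.41 kb. Without peaks below the median score, the nearest lay 371 kb from Il2rg, 93.2 kb from Il7r, 61.8 kb from Il15ra, 1190 kb from Jak1 and 482 kb from Jak3. Under the remaining alternatives the count of genes ran from 7 to 9 and that of peaks from 8 to 16. Among them was a limit to peaks nearest to a start site of any gene of the set. That limit kept Il15ra and Il4ra through peaks nearer to Il2ra and Il21r. RefSeq gene ends, another of them, were chosen after seeing the data. Limiting the RBPJ count to peaks under 20% soft-masked, also chosen after seeing the data, gave 6 of 9. The planned limits gave 5 of 12 in the central 200 bp and 6 of 10 for peaks nearest to a gene of the set. Shares of the whole list under these limits are not given here. Peaks at promoters were 2 of 12 within 500 bp of a start site and 3 of 12 within 2 kb. No paired analysis was possible because there is 1 Notch1 library and the input is not analysed here. Unknown read depth limits every statement that a gene had no peak.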
